A study of Mus musculus with 2 samples.

Results

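The Toll-like receptors and their partners are the 10 genes Tlr1, Tlr2, Tlr3, Tlr4, Tlr6, Tlr7, Tlr9, Ly96, Cd14 and Myd88, out of 19938 genes measured. They were chosen by name as a receptor family, with earlier knockout and wild-type levels of these same arrays in view, so their differences are given as a description and no test was applied to them. A gene counted as a member where a probe set of the array was annotated with its symbol alone, and each of the 10 had 1 such probe set. The arrays were hybridised with total RNA of bone marrow KSL cells, which are sorted for c-Kit and Sca-1 and against markers of mature lineages and hold most blood stem cells along with early multipotent progenitors. The knockout group was Nrf2-/- and the wild-type group Nrf2+/+, both on the C57BL/6J background, young and healthy at 8 to 10 weeks of age, with no treatment named. Cells of 5 mice were pooled per genotype and 1 array was run per pool, so each gene has 1 knockout value and 1 wild-type value and no difference has a replicate check. Both groups were housed in a facility that the labels call clean and germ free. The labels do not state how the Nrf2 allele was made.

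Toll-like receptors are membrane proteins that recognise conserved parts of microbes, at the cell surface for lipids and lipoproteins and inside endosomes for nucleic acids. TLR4 binds bacterial lipopolysaccharide only together with MD-2, the product of Ly96, and CD14 hands the lipid to that complex. TLR2 pairs with TLR1 or TLR6 to sense lipoproteins, TLR3 senses double-stranded RNA, TLR7 single-stranded RNA and TLR9 DNA with unmethylated CpG. All of these except TLR3 pass the signal to the adaptor MyD88 and on to NF-kB, and haematopoietic stem and progenitor cells carry several of them. NRF2, encoded by Nfe2l2, is the transcription factor that drives antioxidant genes.

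Promoter windows of 250 bases before to 50 bases after a RefSeq start (GRCm38.p6) were found for 6 of the 10 members, with 8 windows in all. Those of Tlr4, Tlr7, Ly96 and Cd14 were not used here. Of the windows, 3 are printed: Tlr9, which held the one match to the NRF2 element among the 8 windows, and Tlr2 and Myd88, the members at or above the level filter in both arrays. The filter was a log2 intensity of 6.57, the median over genes of the mean of the 2 arrays. Capitals mark every match to the 4 motifs searched.
Tlr9 (chr9:106222348-106222647, + strand): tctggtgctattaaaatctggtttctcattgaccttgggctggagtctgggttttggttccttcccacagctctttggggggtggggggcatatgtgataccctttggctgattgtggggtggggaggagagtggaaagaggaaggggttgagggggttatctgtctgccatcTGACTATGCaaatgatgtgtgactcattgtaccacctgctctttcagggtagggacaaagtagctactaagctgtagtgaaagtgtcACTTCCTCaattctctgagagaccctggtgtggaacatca
Tlr2 (chr3:83841559-83841858, − strand): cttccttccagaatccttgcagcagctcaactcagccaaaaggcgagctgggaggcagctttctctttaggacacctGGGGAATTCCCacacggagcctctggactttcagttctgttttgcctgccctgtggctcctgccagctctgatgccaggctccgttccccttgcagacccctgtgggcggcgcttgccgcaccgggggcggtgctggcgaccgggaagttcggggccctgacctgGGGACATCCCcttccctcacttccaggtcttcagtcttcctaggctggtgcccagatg
Myd88 (chr9:119339969-119340268, − strand): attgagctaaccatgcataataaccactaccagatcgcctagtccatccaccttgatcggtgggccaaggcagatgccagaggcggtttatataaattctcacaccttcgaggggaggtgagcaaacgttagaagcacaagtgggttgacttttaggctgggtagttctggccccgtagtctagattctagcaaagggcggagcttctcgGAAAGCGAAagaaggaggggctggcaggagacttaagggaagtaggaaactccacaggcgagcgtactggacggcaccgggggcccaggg

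The motifs were searched on both strands as TGACNNNGC for the NRF2 element, GAAANNGAA for the interferon element, GAGGAAGT for the myeloid factor PU.1, and the kappaB consensus of NF-kB. In Tlr9 the NRF2 element match, TGACTATGC, lay at bases 174 to 182 of the window, and a PU.1 match lay on the other strand at bases 261 to 268. Tlr2 held kappaB matches from base 78 to 88 and from base 243 to 252. In the first stretch 3 matches overlap each other, with bases 79 to 88 matched on both strands and so counted for each. Myd88 held the interferon element as GAAAGCGAA at bases 211 to 219. Among the windows not printed, 1 of Tlr1 held a PU.1 match, Tlr3 a kappaB match and 1 of Tlr6 a pair of overlapping interferon element matches, and the remaining 2 windows held none of the 4. Of 32851 RefSeq promoter windows of this length, 12.4% held the NRF2 element, 4.51% the kappaB consensus, 8.56% the interferon element and 3.20% the PU.1 element. Among the 8 windows of members the counts were 1, 2, 2 and 2 in that order. A match describes letters only and is no evidence of binding.

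The targeted gene, Nfe2l2, read 9.07 on the knockout and 9.16 on the wild-type array, differing by −0.09. Its probe set therefore did not separate the genotypes, and as the deleted part is not given in the labels, it does not check them. Stem cell markers were read for the labelled cell type. Kit, which encodes c-Kit, read 11.21 on the knockout and 10.93 on the wild-type array, Cd34 read 11.43 and 11.29 and Flt3 10.94 and 10.84. Of 8 stem cell markers past the filter, 5 were higher and 3 lower, with a median of 0.09 and 0 at 1.5-fold. Among these 8 the transcription factor genes Mecom and Meis1 had the largest differences, −0.45 and 0.35. Slamf1, below the filter, read 6.43 on the knockout and 5.73 on the wild-type array and differed by 0.71. The gene of Sca-1, Ly6a, was not analysed here. Of the lineage markers that the sort selects against, 3 passed the filter, with 1 higher, 2 lower and a median of −0.11, and Itgam, the integrin chain CD11b of myeloid cells, differed by −0.95. The 12 neutrophil markers past the filter ranged from 5.36 to 11.3 on the knockout and from 7.56 to 12.25 on the wild-type array. High stem cell markers alone therefore do not show how pure the sorted cells were. Over the 9970 genes past the filter, the middle 95% differed by between −0.73 and 0.57. For 515 genes past the filter with exactly 2 probe sets, the error of a single probe set's difference had an SD of 0.32, or 0.17 by a robust estimate, which leaves out spread between animals, sorts and amplifications.

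On the 2 arrays, 3 members were at least 1.5-fold higher in the knockout, namely Ly96, Tlr7 and Tlr4, and 1 was at least 1.5-fold lower, Cd14. The other 6 differed by less, from −0.44 to 0.22 on the log2 scale, where a difference is always knockout minus wild type. Over all 10 members 5 were higher and 5 lower, and the median difference was 0.023, beside a median of 0.0056 over all 19938 genes. Of all genes 1.74% reached 1.5-fold higher and 3.15% reached 1.5-fold lower. At a 2-fold size the members counted 2 higher and 0 lower, with 0.311% and 0.602% of all genes. Since the differences helped choose the members, nothing is read from these counts.

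**Figure D1:**
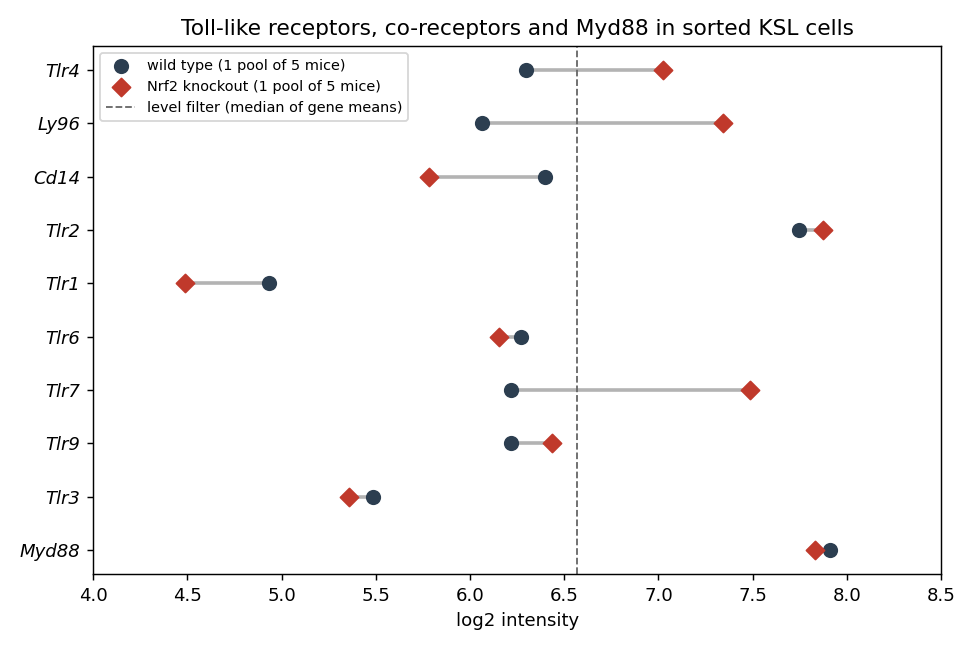
Log2 intensity of each of the 10 members (horizontal axis) in the wild-type array (circles) and the knockout array (diamonds), 1 array of a pool of 5 mice per genotype, joined by a line for each gene; the dashed line is the level filter of 6.57. Tlr4, Ly96 and Tlr7 lie left of the filter line in the wild-type array and right of it in the knockout array, and Cd14 lies lower in the knockout array.

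Low signal limits these values. Past the filter were 5 members, Tlr2, Tlr4, Tlr7, Ly96 and Myd88, of which Tlr4, Tlr7 and Ly96 passed only through the knockout array. Tlr1, Tlr3, Tlr6, Tlr9 and Cd14 were below it. No measure of background was used here, so being below the filter does not show that a gene was not expressed. In place of a replicate error, each difference is set beside the middle 95% of differences among the 500 genes nearest to it in mean level, a scatter that mixes technical spread, spread between pools and real differences. These ranges, and the ranks among genes past the filter, are description only. The members were chosen with their differences in view, and nothing is read from a high rank or a place outside a range.

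The receptor complex for lipopolysaccharide contained both directions. Ly96, the lipid-binding subunit MD-2, read 7.34 on the knockout array and 6.06 on the wild-type array. The difference was 1.28, or 2.43-fold higher, where the 500 genes of like level ranged from −0.75 to 0.51. It was the 22nd highest of the 9970 genes past the filter. Tlr4, the signalling chain of that complex, read 7.03 on the knockout and 6.30 on the wild-type array, a gap of 0.73 and a 1.66-fold higher level. Its difference ranked 124th highest and lay above the range of genes of like level, −0.73 to 0.59. Both subunits were therefore higher in the knockout array, each from a wild-type value below the filter. Cd14, the co-receptor that delivers the lipid, went the other way, with 5.78 for the knockout pool and 6.40 for the wild-type pool. That difference of −0.62, or 1.53-fold lower, lay inside the range of genes of like level, −0.69 to 0.55. With median centring of the arrays it was −0.58, just short of 1.5-fold.

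None of the lipoprotein receptors reached 1.5-fold, and Tlr1 had the lowest difference of the 3. Tlr2, the shared chain of these dimers, read 7.87 on the knockout and 7.75 on the wild-type array and so differed by 0.13. Tlr6, a partner of TLR2 for diacylated lipopeptides, read 6.16 and 6.27 in the same order and differed by −0.12. Both lay inside the scatter of genes of like level, −0.89 to 0.73 for Tlr2 and −0.60 to 0.47 for Tlr6. Tlr1, the partner for triacylated lipopeptides, read 4.49 on the knockout and 4.93 on the wild-type array. Its difference of −0.444 lay just below the range for its level, −0.440 to 0.53, and short of 1.5-fold. Tlr1 and Tlr6 are neighbours on chromosome 5 in the order of protein-coding genes of GRCm38.p6 and are close paralogues, so their probe sets may share signal, which was not tested.

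Among the 3 endosomal receptors, Tlr7 alone reached 1.5-fold. The knockout array read 7.49 and the wild-type array 6.22, which is 1.27 or 2.41-fold higher. This was the 23rd highest difference past the filter, directly after Ly96, and lay above the range of −0.79 to 0.61 for genes of like level. Tlr9, the DNA sensor whose promoter window held the NRF2 element match, read 6.44 on the knockout and 6.22 on the wild-type array. The difference of 0.22 lay within −0.81 to 0.55. Tlr3, the member that signals through TRIF in place of MyD88, stood at 5.36 and 5.49, and its difference of −0.13 lay within −0.55 to 0.51. Tlr9 and Tlr3 were below the filter in both arrays, whereas Tlr7 was below it in the wild-type array only.

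Myd88, the adaptor that most of these receptors share, was level in the 2 arrays. The knockout array read 7.83 and the wild-type array 7.91, so that the level differed by −0.08 and was 94.5% of that in the wild type. With Tlr2 it was one of the 2 members at or above the filter in both arrays, and neither of them reached 1.5-fold.

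**Figure D2:**
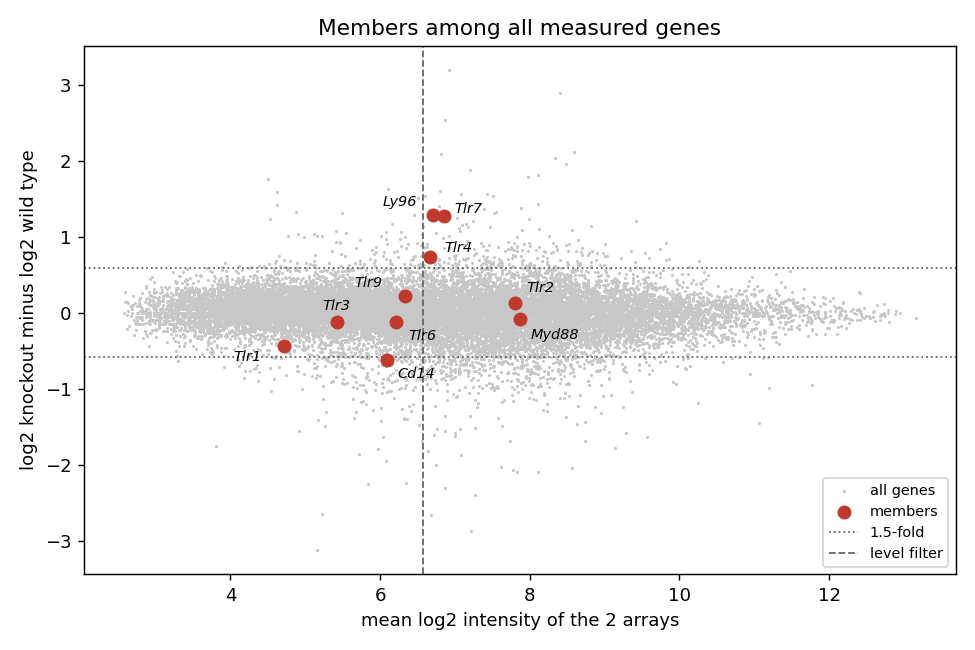
Difference between the arrays (vertical axis, log2 knockout minus log2 wild type) against the mean log2 intensity of the 2 arrays (horizontal axis) for all 19938 genes (grey points, 1 a gene) and the 10 members (red points); dotted lines mark 1.5-fold and the dashed line the level filter. Ly96 and Tlr7 lie together at 1.28 and 1.27, Tlr4 at 0.73, and Tlr2 and Myd88 lie near 0.

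Other Toll-like receptors outside the 10 did not move one way. Tlr8, another endosomal RNA sensor and the protein-coding gene next to Tlr7 on the X chromosome, read 3.92 on the knockout and 4.82 on the wild-type array and differed by −0.90, against 1.27 for Tlr7. Tlr13, a sensor of bacterial ribosomal RNA, differed by −0.79, at 5.10 and 5.89. Tlr12, a sensor of parasite profilin, differed by 0.58, at 6.63 and 6.04, just short of 1.5-fold. All 3 were below the filter by their mean. Tlr5 and Tlr11 were not analysed here.

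The genes that serve these receptors were mostly lower in the knockout array or level. Past the filter, 2.34% of all genes reached 1.5-fold higher and 4.3% reached 1.5-fold lower, and the median difference was −0.020. Of 14 accessory, chaperone and trafficking genes, 11 passed the filter, with 3 higher, 8 lower and a median of −0.36. Markers of neutrophils and of monocytes and macrophages were lower too, with medians of −1.63 and −0.73, and their part in this group was not tested. The one member of this list at 1.5-fold was Ly86, which encodes MD-1, the relative of MD-2. Its log2 levels were 6.65 for the knockout and 7.45 for the wild type, which differ by −0.80. Cd180, whose product RP105 pairs with MD-1 as TLR4 does with MD-2, differed by −0.36, at 8.58 and 8.93, short of 1.5-fold. Lbp, the serum protein that loads lipopolysaccharide onto CD14, also differed by −0.35.

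Of the factors that endosomal receptors such as TLR7 need, those past the filter stayed within 1.5-fold. Unc93b1, the escort that carries these receptors to endosomes, read 8.07 on the knockout and 8.24 on the wild-type array and differed by −0.17. The endosomal proteases that process the receptors, Ctsb, Ctsl and Ctss, differed by −0.42, −0.49 and −0.45. Slc15a4, an endolysosomal transporter required for TLR7 and TLR9 signalling, differed by −0.43. The chaperones Hsp90b1 (gp96) and Cnpy3, which fold many Toll-like receptors, each differed by 0.13.

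In the signalling chain below the receptors no gene past the filter reached 1.5-fold, but its groups leaned different ways. Of 5 adaptors listed, all 5 were lower, where 52.9% of all genes past the filter were lower. Ticam2 and Sarm1 differed by only −0.06 and −0.14, less than the robust probe set error of 0.17. Sarm1 and Tirap were below the filter. The 3 adaptors past the filter had a median of −0.27 and 0 at 1.5-fold. Pik3ap1, which links the receptors to PI3K, differed by −0.39 and Ticam1, which encodes TRIF, by −0.27. Tirap, the bridge from TLR2 and TLR4 to MyD88, was below the filter with 5.47 for the knockout and 6.41 for the wild type, which differ by −0.94. Of the 13 measured genes of the IRAK, TRAF and TAK1 cascade, all past the filter, 6 were higher and 7 lower, with a median of −0.10 and 0 at 1.5-fold; with the probe set of the highest mean for each gene the median was 0.05. Map3k8, the kinase upstream of ERK, and the ubiquitin ligase Peli2 had the largest differences, −0.49 and −0.47. In the arm of IKK, TBK1 and interferon regulatory factors, 6 of 8 genes were higher, with a median of 0.19 and 0 at 1.5-fold. Irf5, a transcription factor activated through MyD88, differed by 0.42, and Ikbkg, which encodes the IKK subunit NEMO, by −0.50.

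Feedback genes and receptors that share MyD88 had 1 gene each at 1.5-fold, lower in both groups. Of 10 negative regulators past the filter, 7 were lower and 3 higher, with a median of −0.15. Tnfaip3, the deubiquitinase A20, was the one at 1.5-fold, with 8.06 for the knockout and 8.67 for the wild type. Of 4 receptors of the IL-1 and IL-18 family past the filter, 3 were lower and Il18rap had equal values, with a median of −0.17. Il18r1, the ligand-binding chain for IL-18, was the one at 1.5-fold, with a difference of −0.61. Both calls were marginal, since 1.5-fold is 0.585 on the log2 scale. Median centring, which adds 0.037 to every difference, left Tnfaip3 and Il18r1 just short of it.

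Genes that Toll-like receptor signalling is known to induce were lower in the array in which Ly96, Tlr4 and Tlr7 were higher. Of 18 listed, 13 passed the filter, of which 11 were lower and 2 higher, with a median of −0.52, and 6 were at least 1.5-fold lower against 0 higher. These 6 were the chemokine Cxcl10 at −2.40, the cytokine Il1b at −1.88, the neutrophil chemokine Cxcl2 at −1.44, the chemokines Ccl5 at −0.70 and Ccl3 at −0.59, and Acod1, which makes itaconate in activated macrophages, at −0.68. Past the filter, 4.3% of all genes reached 1.5-fold lower and 2.34% higher. Ccl3 was a marginal call, as median centring, which adds 0.037 to every difference, left it just short of 1.5-fold. Tnf, the tumour necrosis factor gene, differed by −0.33 and Ccl4 by 0.02. In the knockout array Cxcl10 and Il1b read 6.07 and 6.14, under the filter level, so their sizes are less sure. The list was written with lower values of several of these genes already known, so its direction is no independent evidence. In the same array the neutrophil and monocyte-macrophage markers had medians of −1.63 and −0.73, and their part in this group was not tested.

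**Figure D3:**
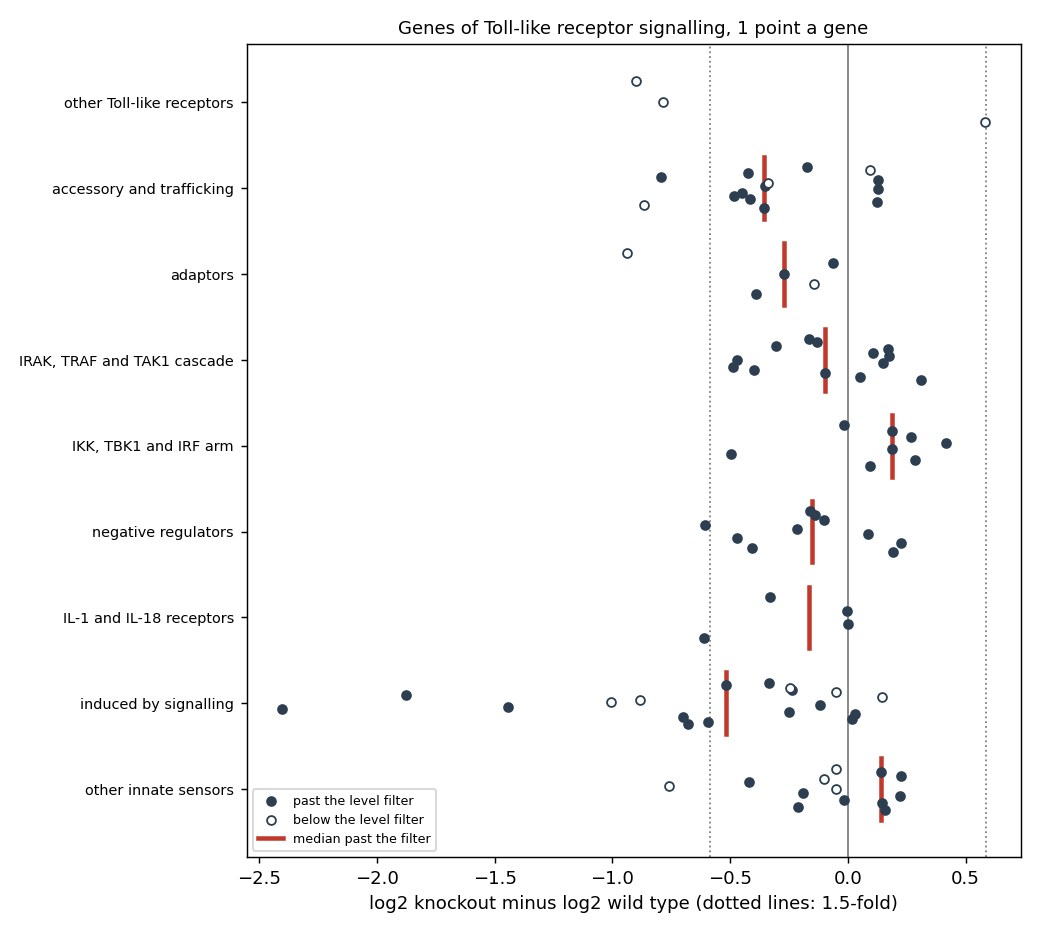
Log2 knockout minus log2 wild type (horizontal axis) for each measured gene of 9 groups around Toll-like receptor signalling (rows), filled where the gene passed the level filter and open where it did not, with a red bar at the median past the filter and dotted lines at 1.5-fold. The group induced by signalling has its median at −0.52, the arm of IKK, TBK1 and IRF at 0.19.

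Other innate sensors were followed for comparison. The list named 13 measured genes, of which 9 passed the filter, with 5 higher, 4 lower, a median of 0.14 and 0 at 1.5-fold in either direction. The RNA helicase sensor Ifih1 differed by 0.22 and the inflammasome adaptor Pycard by 0.23, while Nod1, which senses bacterial peptidoglycan, differed by −0.42. Without the level filter the median was −0.051.

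Markers of other cells were not equal in the 2 arrays, and their part in the values of the members was not tested. In a pool, fewer cells of a type and less RNA per cell cannot be told apart. Among 12 neutrophil markers past the filter, 11 had the lower value in the knockout pool and 10 reached 1.5-fold lower. Of all genes past the filter, 4.3% reached 1.5-fold lower. Csf3r was the one higher, by 0.12, and Ly6g, below the filter, was higher by 0.51. The median of the 12 was −1.63, and their mean log2 intensity was 8.16 for the knockout and 9.58 for the wild type. The 10 at least 1.5-fold lower ran from Retnlg at −2.66, Lcn2 at −2.10, Mmp8 at −2.00 and Chil3 at −1.78, through Ltf at −1.69, Camp at −1.64, Cxcr2 at −1.63 and S100a8 at −1.45, to Ngp at −0.99 and S100a9 at −0.95. In the knockout array Retnlg, Mmp8 and Cxcr2 read 5.36, 5.74 and 6.19, under the filter level. They passed through the wild-type array only, so their sizes are less sure. Of 8 monocyte-macrophage markers past the filter, 7 were lower, 5 of them at least 1.5-fold, and Cd68, a lysosomal protein of macrophages, was higher by 0.63. This list had a median of −0.73 and mean levels of 7.66 for the knockout and 8.30 for the wild type. The 5 lower genes were the chemokine Ccl6 at −1.52, Ms4a6c, which was 2.01-fold lower, Ms4a6b at −0.80, fibronectin, Fn1, at −0.80 and the growth factor receptor Csf1r at −0.67. Ccl6 and Fn1 read 6.51 and 6.41 on the knockout array, under the filter level. They too passed through the wild-type array only, so their sizes are less sure. Mature monocytes are known to express Cd14, Tlr4 and Ly96.

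Plasmacytoid dendritic cells and B cells express Tlr7 and Tlr9, and lists of dendritic and B lineage markers were read. Flt3 is on the dendritic list and also among the stem cell markers above. The dendritic markers Ccr9, Itgax, Xcr1, Clec9a and Zbtb46 were below the filter. The medians of these lists are therefore not a measure of how many such cells were present. Of 8 dendritic markers past the filter 4 were higher and 4 lower, with a median of 0.04 and 0 at 1.5-fold. The class II genes H2-Ab1 and H2-Aa had the largest differences, 0.25 each. Siglech, which marks plasmacytoid dendritic cells, was below the filter and differed by 0.27, and Irf8 differed by −0.05. Of 6 B lineage markers past the filter 4 were higher and 2 lower, with a median of 0.21. Ly6d was at least 1.5-fold higher, at 0.67, and the antigen receptor subunit Cd79b at least 1.5-fold lower, at −0.79. Past the filter, 2.34% of all genes reached 1.5-fold higher and 4.3% lower. Ly6d read 7.06 on the knockout and 6.39 on the wild-type array. It passed the filter through the knockout array only, so its size is less sure. Ms4a1, which encodes CD20 of mature B cells, was at 4.26 and 4.42, and Pax5 at 5.69 and 5.58, both below the filter. Without the level filter the B lineage median was 0.035.

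**Figure D4:**
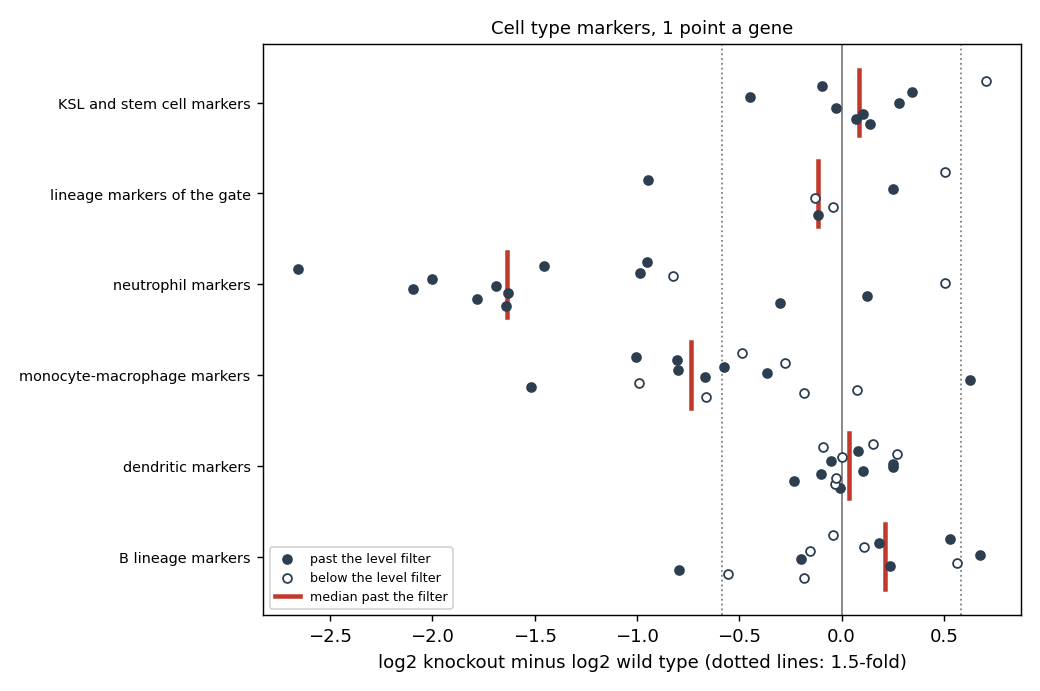
Log2 knockout minus log2 wild type (horizontal axis) for markers of the sorted cells and of other blood cells (rows), drawn as in the plot of the signalling groups. Neutrophil and monocyte-macrophage markers lie mostly left of 0, with medians of −1.63 and −0.73, and dendritic and stem cell markers lie around 0, with medians of 0.04 and 0.09.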

How the data were processed

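The authors deposited a log2 intensity for every probe set of 2 Affymetrix Mouse Gene ST 1.0 arrays hybridised with amplified total RNA. Amplification and labelling used NuGEN Ovation kits, per the labels' protocols. Partek appears, without a role, in the submitters' processing notes; how background, normalization and probe summary were handled is not given in the sources used. The log base was taken from the values, 2.40 to 13.8. Once sorted, the 2 columns lay within 0.0866 of each other, so a shift of all genes one way could not be seen. Depth is not defined for arrays, and their number, 1 per genotype, limits the precision.

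Of 28853 probe sets, 21789 had 1 gene symbol in the platform annotation and were used, 1621 had several and 5443 none. Probe sets of a gene were averaged. No test was run. Genes were counted at 1.5-fold, and lists by counts and medians past the level filter, beside all genes. Named were all members, each list's genes past the filter at 1.5-fold or otherwise up to 2 with the largest difference, and Nfe2l2; further partners of the receptors and markers were named after their values were seen. The members and lists were chosen with earlier results of these data known. Alternatives were median centring, quantile normalization, loess on mean level (fraction 0.3), the probe set with the highest mean, no filter or one at the 75th percentile, a 2-fold size, and probe sets with several symbols. Counting and loess were tested on differences of these arrays shuffled among genes of similar level, with known folds and a trend planted. Motif search was tested on made sequences for the NRF2, interferon and PU.1 elements, not for kappaB. Python 3.11.15, numpy 2.4.6, pandas 2.3.3 and statsmodels 0.14.6 were used.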

Additional observations from a re-analysis of the deposited data

How the results depend on the processing

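Each member kept the sign of its difference under median centring, quantile normalization and loess. Taking the probe set with the highest mean could not change a member, since each had 1 probe set. Tlr7 ranged from 1.27 to 1.30, Ly96 from 1.28 to 1.32, Tlr4 from 0.73 to 0.77 and Cd14 from −0.64 to −0.58. The count of members at least 1.5-fold higher past the filter, 3, fell to 0 with a filter at the 75th percentile, which none of these 3 passed. The count lower past the filter, 0, became 1 with no filter, which admits Cd14. With no filter the median of the other innate sensors was −0.051 and that of B lineage markers 0.035, with weaker members included, and that of dendritic markers turned from 0.036 to −0.0033. The median of the IRAK, TRAF and TAK1 cascade turned from −0.099 to 0.052 with the probe set of the highest mean and with the filter at the 75th percentile. No scaling moved the median of all genes by more than 0.037. Median centring, the largest of these shifts, left Tnfaip3, Il18r1 and Ccl3 just short of 1.5-fold lower. Probe sets with several symbols added no value, since none named a member. No paired analysis was possible because each genotype had 1 pool. With 1 array per genotype, spread between animals, sorts and amplifications cannot be told apart from genotype.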
